A study of Fragaria vesca with 24 samples.

Results

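Transcript levels in the crown and in the leaf of untreated plants of the freezing tolerant woodland strawberry (Fragaria vesca) ‘Alta’ were compared across all expressed genes. The 6 libraries of the comparison, 3 of crown and 3 of leaf, are all the libraries of ‘Alta’ sampled at 0 h, out of 24 in the series. Of 34006 genes in the count table, 19310 reached 0.5 CPM (the count scaled to a common library size) in at least 2 of the 6 libraries and were tested, and 10133 had no count in any of them. The plants were clones raised from runners and grown for 5 weeks at 20 ± 2 °C under an 18 h photoperiod, with no cold exposure. The labels name no transgene or mutation, and each tissue is represented by 1 clonal genotype. The rest of the series holds the same tissues of ‘Alta’ after 42 d at 2 °C, and both tissues of the freezing susceptible genotype ‘NCGR1363’ at 0 h and after 42 d, in 3 libraries each. The replicates are described as biological in the methods, which do not say whether each was a separate plant or a pool, so p-values measure the spread between these libraries. The study used these data to look at genes inside a freezing tolerance locus on chromosome 2, here called the QTL interval.

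The strawberry crown is a short, compressed stem. It carries the shoot apex, the axillary buds and the bases of the leaves, it connects roots and runners through its vascular tissue, and in perennial plants its survival decides whether the plant regrows after winter. The leaf is the main photosynthetic organ, with chloroplast-rich mesophyll under an epidermis with stomata. Both are mixtures of cell types, and in such bulk samples fewer cells of a type and less RNA per cell cannot be told apart.

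The tissues differed in most of their expressed genes. In edgeR's quasi-likelihood test with Benjamini-Hochberg adjustment, 14121 of the 19310 genes (73.1%) passed a false discovery rate (FDR) of 0.05, 7168 (37.1%) of them higher in crown and 6953 (36%) higher in leaf. The crown and leaf libraries did not overlap in CPM in 15013 genes (77.7%). Differences of over 2-fold were fitted for 4402 genes on the crown side and 4250 on the leaf side, and differences of over 16-fold for 995 and 1071. A stricter test against a 2-fold difference passed 7100 genes, 3537 of them higher in crown. The even split depends on the scaling. With library size alone the median log2 difference moved by 0.68, and 11896 of 15927 genes called (74.7%) were higher in crown. With the trimmed mean (TMM) factors of the main fits the share was 50.8%.

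The excess of high-level transcripts was on the leaf side. Among the 147 genes with a mean of at least 1000 CPM in the higher tissue, 121 were higher in leaf and 23 in crown. Between 1 and 10 CPM the order was the other way round, with 1859 of 5113 genes higher in crown and 1393 in leaf. The 10 most abundant genes held 5.02–5.32% of the counts of a crown library and 10.4–10.9% of a leaf library, and the top 100 held 14.2–14.7% and 29–29.8%. At least 0.5 CPM in 2 of 3 libraries, scaled by library size alone, was reached in crown alone by 1860 genes and in leaf alone by 730. Relative to TMM that scaling raises crown levels, so it favours crown in these counts. Genes with at least 1 CPM (TMM-scaled) in every library of a tissue and no count in the other numbered 155 for crown and 52 for leaf. At a given TMM-scaled CPM a leaf library held fewer counts than a crown library. Absence was therefore easier to reach in leaf, which favours crown in these numbers too. The share of genes called lay between 72.5 and 74% on each of chromosomes 1 to 7.

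**Figure D1:**
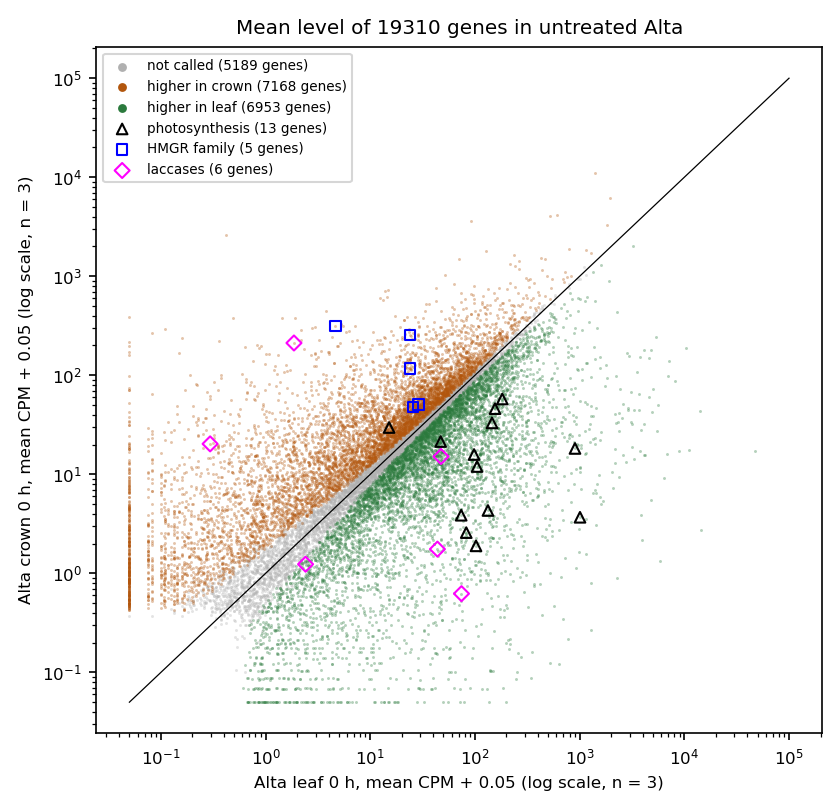
Mean CPM of each of 19310 genes in ‘Alta’ leaf (x axis) and crown (y axis) at 0 h, both on log scales after adding 0.05 CPM, with genes coloured by edgeR call at FDR 0.05 and 3 gene lists marked. Orange points (7168 genes) lie above and green points (6953) below the line of equal level; the 5 tested HMGR genes lie above it, 12 of 13 photosynthesis genes below it, and the laccases on both sides.

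A few genes stood at the ends of the whole table by level and by absence from the other tissue, and only their identifiers are given because the sources used here describe genes of the QTL interval alone. FvH4_3g01400 measured 375, 412 and 391 CPM in the crown libraries and had no count in leaf, at least 1487-fold higher against a floor of 3 counts per library. FvH4_2g32400, on chromosome 2, was at least 827-fold higher in crown. On the leaf side FvH4_7g21400 measured 202, 201 and 186 CPM with no count in crown, at least 1199-fold higher, and FvH4_6g11750 was at least 831-fold higher with 206, 106 and 95.9 CPM.

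The named genes that follow lie in the QTL interval on chromosome 2 of the F. vesca v4.a2 annotation. Their descriptions are those of the study. The interval was like the rest of the genome in its share of calls, with 173 of 496 tested genes higher in crown and 178 higher in leaf (70.8% called). Of the 541 genes with an informative description 378 were tested, 135 being higher in crown and 136 in leaf. They were read in lists by function. The 37.1 and 36% of all genes are given beside a list's share of calls for scale only. Lists and members were chosen with earlier results of these data known, so their shares and medians are descriptive.

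Genes of photosynthesis were mostly higher in leaf. In the chloroplast, light-harvesting complexes and the photosystems feed electrons to carriers, ATP synthase uses the resulting proton gradient, and thioredoxins switch enzymes of carbon fixation on in light. Of 14 genes in the photosynthesis list 13 were tested, 12 were higher in leaf and 1 in crown, with a median log2 difference (crown minus leaf) of −3.13 against 0.02 over all genes. The summed level of the list was 243–257 CPM in crown and 3022–3069 CPM in leaf. A further list of other chloroplast proteins had 15 of 19 tested genes higher in leaf and 1 in crown, with a median of −1.75.

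The gene for a thioredoxin M-type protein (FvH4_2g14900), which regulates chloroplast enzymes by reduction, measured 4.23, 3.44 and 3.23 CPM in the crown libraries and 1048, 955 and 1020 CPM in the leaf libraries. All leaf libraries were far above all crown libraries, 277-fold in the means (log2 −8.11, SE 0.13, edgeR FDR 4.04e-10). The ATP synthase delta chain (FvH4_2g12490), which joins the catalytic head of the chloroplast enzyme to its stator, measured 18.2, 18.1 and 18.3 CPM in crown and 914, 931 and 863 CPM in leaf. The crown libraries were nearly identical, and the leaf mean was 49.6-fold higher (log2 −5.63, SE 0.09, edgeR FDR 4.04e-10). A psbP domain-containing protein (FvH4_2g14791), of a family named for a subunit of photosystem II, measured 2.01, 2.05 and 1.47 CPM in crown and 102, 102 and 103 CPM in leaf. Its leaf libraries were 55.4-fold higher and differed little among themselves (log2 −5.78, SE 0.11, edgeR FDR 6.56e-10).

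Carbonic anhydrase 2-like (FvH4_2g14190), of the enzyme family that interconverts CO2 and bicarbonate, measured 2.01, 4.27 and 1.3 CPM in crown and 60.0, 90.2 and 97.5 CPM in leaf. The groups were well apart although both spread more than those above (log2 −5.02, SE 0.34, edgeR FDR 1.31e-06). The chloroplast signal recognition particle protein of the cpSRP43 type (FvH4_2g16010), which escorts light-harvesting proteins to the thylakoid, measured 4.28, 4.71 and 3.80 CPM in crown against 123.4, 152.5 and 123.1 CPM in leaf. Its log2 difference was −4.96 (SE 0.13, edgeR FDR 2.67e-09). Chloroplast fructose-1,6-bisphosphatase (FvH4_2g11590), an enzyme of the Calvin cycle, measured 11.6, 12.6 and 11.6 CPM in crown and 107, 105 and 102 CPM in leaf. That is a log2 difference of −3.13 (SE 0.08, edgeR FDR 1.72e-09). None of the 13 tested genes of the list overlapped between tissues, and 77.7% of all genes tested did not either.

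The exception was zeaxanthin epoxidase (FvH4_2g15511), which converts zeaxanthin in the xanthophyll cycle and also supplies precursors of abscisic acid. It measured 25.1, 32.0 and 31.8 CPM in crown and 19.3, 12.4 and 13.6 CPM in leaf. All crown libraries were above all leaf libraries, with a log2 difference of 0.96 (SE 0.17, edgeR FDR 0.000871). Among the other chloroplast proteins the glutamate–tRNA ligase (FvH4_2g14910), whose product feeds both organelle translation and chlorophyll synthesis, was higher in leaf by 2.54 on the log2 scale. A probable alanine–tRNA ligase (FvH4_2g16070) measured 5.57–6.37 CPM in crown and 190–241 CPM in leaf, a log2 difference of −5.17 (SE 0.12, edgeR FDR 1.40e-09).

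**Figure D2:**
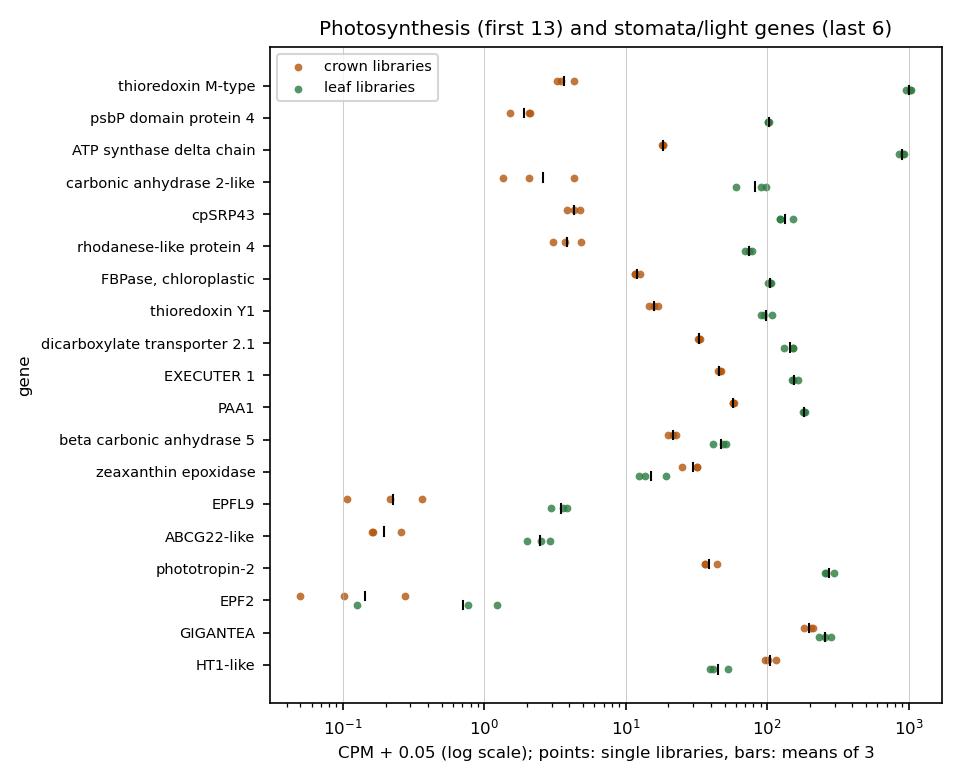
CPM of single libraries (points; log scale after adding 0.05 CPM) and means of 3 (bars) for 19 tested genes of the photosynthesis list and the stomata and light list in ‘Alta’ at 0 h. Leaf libraries lie above crown libraries in all but zeaxanthin epoxidase and HT1-like, whose crown libraries are higher, and EPF2, where the tissues overlap.

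Genes of stomata and light signalling also leaned to leaf, with 5 of 6 higher in leaf and 1 in crown. EPIDERMAL PATTERNING FACTOR-like 9 (EPFL9, FvH4_2g17950), which promotes stomatal development in Arabidopsis, measured 0.310, 0.166 and 0.0566 CPM in crown and 2.93, 3.56 and 3.76 CPM in leaf. Its levels were low in both tissues but did not overlap (log2 −4.18, SE 0.44, edgeR FDR 2.57e-05). EPF2 (FvH4_2g12460), which limits stomatal number in Arabidopsis, measured 0.0516, 0 and 0.227 CPM in crown and 0.0752, 1.19 and 0.717 CPM in leaf. The tissues overlapped and the call was marginal (log2 −2.68, SE 1.06, edgeR FDR 0.0473); it was lost without ‘Alta’ crown replicate 1 (FDR 0.12) or crown replicate 2 (FDR 0.111) and under library size scaling (FDR 0.111). Phototropin-2 (FvH4_2g17220), a blue light receptor that moves chloroplasts and opens stomata, measured 43.8, 36.3 and 36.5 CPM in crown and 299, 258 and 259 CPM in leaf. Every leaf library was above every crown library (log2 −2.81, SE 0.10, edgeR FDR 2.24e-08).

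GIGANTEA (FvH4_2g13030), a component of the circadian clock and of photoperiodic flowering, measured 205.7, 181.9 and 209.8 CPM in crown and 284, 233 and 256 CPM in leaf. The tissues did not overlap, and the log2 difference of −0.37 passed the test (edgeR FDR 0.00621) but turned to 0.31 (FDR 0.0143) with library size alone and was not called with upper quartile scaling (FDR 0.106). The member higher in crown was a serine/threonine-protein kinase HT1-like (FvH4_2g14210), related to a kinase that controls stomatal responses to CO2 in Arabidopsis. It measured 96.5, 115.9 and 101.1 CPM in crown and 53.2, 41.6 and 39.4 CPM in leaf, a log2 difference of 1.22 (SE 0.12, edgeR FDR 2.07e-05).

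Genes of vascular tissue and the cell wall were divided, and several of the largest crown levels were among them. In vascular tissue, xylem vessels lay down secondary walls of cellulose and lignin and then die, with proteases clearing the cell contents. Of 3 tested genes in the vascular list 2 were higher in crown and 1 in leaf. Xylem cysteine proteinase 1 (XCP1, FvH4_2g16940), which degrades the contents of dying vessel cells, measured 290, 268 and 266 CPM in crown and 57.8, 83.6 and 80.1 CPM in leaf. No library overlapped, and the log2 difference was 1.90 (edgeR FDR 1.61e-06). LIKE COV 2 (FvH4_2g13260), named for a gene that restrains vascular tissue in the Arabidopsis stem, was higher in crown by 0.89 on the log2 scale. The DOF1.2 zinc finger factor (FvH4_2g14390) measured 0.155, 0.166 and 0 CPM in crown and 3.08, 3.07 and 3.58 CPM in leaf.

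Cell wall genes as a list had 6 of 15 tested higher in crown and 3 in leaf, with a median log2 difference of 0.05. With library size alone these counts became 14 and 1. Expansin-like A2 (EXLA2, FvH4_2g16110), of a family related to proteins that loosen growing walls, measured 549, 761 and 845 CPM in crown and 15.9, 13.5 and 14.3 CPM in leaf. The crown mean of 719 ± 153 CPM (SD, n = 3) was 49.3-fold above the leaf mean of 14.6 ± 1.26 CPM (log2 5.62, SE 0.19, edgeR FDR 1.08e-08). Extensin-3-like (FvH4_2g14220), a hydroxyproline-rich structural wall protein, had the highest counts of the list with 3398, 3214 and 3343 CPM in crown and 1382, 2063 and 1971 CPM in leaf. Its tissues did not overlap, at a log2 difference of 0.88 (edgeR FDR 0.000579). Expansin-A20 (FvH4_2g17030) and a putative glycine-rich wall protein (FvH4_2g18220) were higher in crown by 3.82 and 2.49 on the log2 scale, at 2.99–3.74 and 19–23.5 CPM.

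The receptor kinase THESEUS1 (FvH4_2g16820), which monitors the state of the wall in Arabidopsis, was one of the members higher in leaf. It measured 9.29–11.4 CPM in crown and 33.5–37.2 CPM in leaf, a log2 difference of −1.80 (edgeR FDR 4.70e-07). A cellulose synthase A catalytic subunit (FvH4_2g13380) overlapped between the tissues at 102–140 and 121–158 CPM and was not called (log2 −0.22, edgeR FDR 0.184); its difference was 0.46 (FDR 0.0137) with library size alone and −0.32 (FDR 0.0346) without ‘Alta’ leaf replicate 1.

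The laccases split in direction, also between neighbours in ID order. Laccases are copper oxidases of the apoplast, and in plants members of the family polymerise lignin precursors. Of 7 genes 6 were tested, 2 being higher in crown and 3 in leaf. Laccase-15-like (FvH4_2g12610) measured 248, 187 and 201 CPM in crown and 1.58, 2.08 and 1.79 CPM in leaf, 117-fold higher in crown (log2 6.87, SE 0.17, edgeR FDR 1.69e-09). Its neighbour in ID order laccase-14-like (FvH4_2g12620) measured 0.826, 0.499 and 0.397 CPM in crown and 24.1, 108 and 90.5 CPM in leaf, 129-fold higher in leaf (log2 −6.97, SE 0.69, edgeR FDR 1.82e-05). These neighbours thus differed from each other in direction, with no overlap between the tissues in either.

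A putative laccase-9 (FvH4_2g12570) was also a crown gene, at 18.2, 24 and 18.5 CPM against 0, 0.198 and 0.538 CPM in leaf (82.6-fold, log2 6.39, SE 0.42, edgeR FDR 1.00e-06). A second putative laccase-9 (FvH4_2g12820) and another laccase-14-like gene (FvH4_2g12830) were higher in leaf by 4.66 and 1.65 on the log2 scale. In all 3 leaf-side laccases leaf replicate 1 was the lowest leaf library, at 20.8 CPM against 53.2 and 57.2 CPM in FvH4_2g12820 for example. FvH4_2g12590 overlapped between the tissues and was not called (log2 −0.95, edgeR FDR 0.126), but it passed without ‘Alta’ leaf replicate 1 (log2 −1.36, FDR 0.00623). Any reads that similar copies share could have been divided between them by the counting, which was not tested.

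The genes for 3-hydroxy-3-methylglutaryl-coenzyme A reductase (HMGR) were higher in crown in all 5 members tested. HMGR makes mevalonate, the committed step towards sterols and other isoprenoids in the cytosol. The family stands in 6 neighbouring gene models, of which FvH4_2g17091 had no count in any of the 6 libraries. The summed level was 736–827 CPM in crown and 90.0–137 CPM in leaf, and the median log2 difference was 2.29.

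FvH4_2g17060 measured 297, 321 and 328 CPM in crown and 7.30, 2.87 and 3.58 CPM in leaf. The crown mean of 315 ± 16.3 CPM was 68.8-fold above the leaf mean of 4.58 ± 2.38 CPM (SD, n = 3; log2 6.058, SE 0.25, edgeR FDR 4.57e-08). FvH4_2g17051 measured 230, 262 and 274 CPM in crown and 23.9, 23.6 and 24.4 CPM in leaf, 10.7-fold higher in crown (log2 3.41, SE 0.09, edgeR FDR 2.78e-09). FvH4_2g17080 measured 105, 129 and 118 CPM against 31.2, 20.0 and 20.3 CPM (log2 2.29, edgeR FDR 2.41e-06).

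In these members every crown library was above every leaf library, while the remaining pair lay closer together. FvH4_2g17090 measured 50.2, 50.5 and 50.9 CPM in crown and 37.3, 27.9 and 21.1 CPM in leaf (log2 0.81, edgeR FDR 0.00233; FDR 0.123 in a fit of 23 libraries). FvH4_2g17100 measured 53.9, 33.9 and 55.1 CPM in crown and 36.7, 19.1 and 20.6 CPM in leaf (log2 0.89, edgeR FDR 0.014). Its tissues overlapped, and the call was lost without ‘Alta’ crown replicate 3 (FDR 0.0529), leaf replicate 2 (FDR 0.057) or leaf replicate 3 (FDR 0.0613). Per kilobase of coding length the crown order was FvH4_2g17060 at 181.5 CPM, FvH4_2g17051 at 149, FvH4_2g17080 at 66.4, FvH4_2g17090 at 61.5 and FvH4_2g17100 at 26.6. In leaf FvH4_2g17090 led at 35 CPM per kilobase and FvH4_2g17060 was lowest at 2.64. How similar the copies are was not examined, and any reads they share would leave these single-member levels uncertain.

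**Figure D3:**
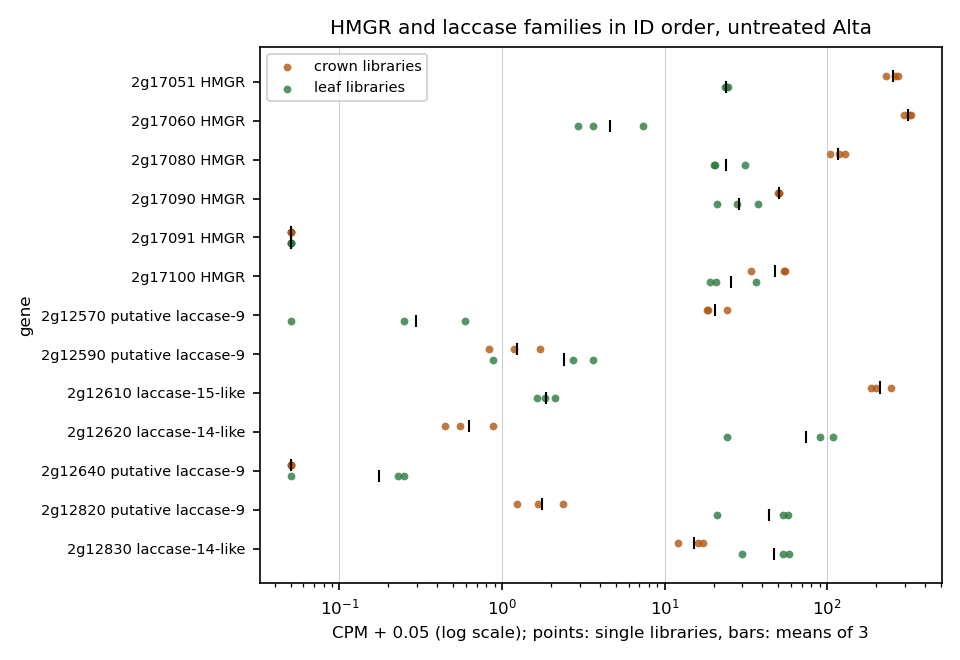
CPM of single libraries (points; log scale after adding 0.05 CPM) and means of 3 (bars) for the 6 HMGR and 7 laccase gene models in ID order, ‘Alta’ at 0 h. The 5 detected HMGR genes have higher crown means; laccase FvH4_2g12610 is 117-fold higher in crown and FvH4_2g12620 129-fold higher in leaf.

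Other metabolic genes included several that were close to absent from 1 tissue. An O-methyltransferase-like gene (FvH4_2g15840), of an enzyme family that methylates small aromatic compounds, measured 8.41, 9.42 and 8.84 CPM in crown and 0.15, 0.099 and 0 CPM in leaf. With 489 counts in crown and 3 in leaf the ratio was 102, with a counting interval (exact, 95%) of 34.8–498. An acyl-[acyl-carrier-protein] enzyme gene of fatty acid metabolism (FvH4_2g14690) measured 18.6, 9.42 and 12 CPM in crown with no count in leaf, at least 50.5-fold higher. Intervals and floors of this kind cover counting error only.

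A TRANSPARENT TESTA 12-like transporter gene (FvH4_2g14370), named for the Arabidopsis carrier of proanthocyanidin precursors into the vacuole, was the reverse case. It had no count in crown and measured 22.3, 38.3 and 37.3 CPM in leaf, at least 199-fold higher in leaf. A vacuolar iron transporter gene (FvH4_2g13960), of a family that stores iron in the vacuole, measured 147, 177 and 139 CPM in crown and 2.48, 2.77 and 4.12 CPM in leaf. Every crown library was above every leaf library (log2 5.63, edgeR FDR 7.31e-09).

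The flavin monooxygenases, which oxidise nitrogen or sulphur atoms of small molecules, had 2 of 3 tested genes higher in crown and 1 in leaf. A probable FMO1 (FvH4_2g16430), named for an Arabidopsis enzyme of systemic immunity, measured 0.103, 0.111 and 0.227 CPM in crown and 23.6, 21.9 and 20.3 CPM in leaf. It was 149-fold higher in leaf (log2 −7.16, edgeR FDR 8.81e-09), whereas FvH4_2g15410 and FvH4_2g16450 were higher in crown by 1.32 and 1.64 on the log2 scale. Of 3 tested quinone oxidoreductases 2 were higher in leaf, the larger difference being that of FvH4_2g18350 at 0.499–0.850 CPM in crown and 36.9–41.8 CPM in leaf (log2 −5.73, edgeR FDR 4.66e-09).

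A benzoyltransferase gene (FvH4_2g12510), of enzymes that make benzoate esters of floral and fruit scent, measured 121, 125 and 127 CPM in crown and 15.6, 12.5 and 12.4 CPM in leaf. All crown libraries were higher (log2 3.2), while UDP-glycosyltransferase 74F2-like (FvH4_2g17430), related to Arabidopsis enzymes that attach glucose to salicylic acid, was higher in leaf by 5.69 on the log2 scale, at 62.0–84.3 CPM. An alcohol dehydrogenase-like gene (FvH4_2g14750), of the enzyme that regenerates NAD+ in fermentation, measured 438, 373 and 376 CPM in crown and 86.4, 84.5 and 83 CPM in leaf (log2 2.23). Its neighbour FvH4_2g14760 measured 83, 64 and 56.5 CPM against 7.30, 6.73 and 7.35 CPM (log2 3.25). Both were higher in crown in every library.

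Sugar carriers were divided. SWEET1-like (FvH4_2g14860), of a family of sugar uniporters, measured 6.35, 7.98 and 6.85 CPM in crown and 58.5, 51.5 and 52.1 CPM in leaf (log2 −2.94), and the monosaccharide-sensing protein 2 (FvH4_2g16850), a sugar transporter of the vacuole membrane, was higher in crown by 1.02 on the log2 scale. Of 3 tested lysine histidine transporters, which import amino acids, 1 was higher in leaf (FvH4_2g16050, log2 −2.27). FvH4_2g16054 measured 32.0, 35.7 and 39.9 CPM in crown and 38.7, 9.90 and 11.6 CPM in leaf and was not called (edgeR FDR 0.117), but it passed without ‘Alta’ leaf replicate 1 (log2 1.74, FDR 7.86e-07). A tryptophan aminotransferase-related protein 4 gene (FvH4_2g13010), of the family that starts auxin synthesis, measured 2.32–3.99 CPM in crown and 28.3–29.9 CPM in leaf (log2 −3.32).

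Genes of regulation and defence were described in 3 lists. Of 20 tested transcription factors 11 were higher in crown and 5 in leaf (median log2 0.74), of 8 tested disease resistance genes 5 and 2 (median 1.5), and of 11 tested receptor-like kinases 6 and 4 (median 0.60). In ‘NCGR1363’ the same lists had 5 of 19 tested genes higher in crown and 7 in leaf, 3 and 3 of 9, and 2 and 5 of 9. Over all genes tested in that genotype 6299 of 19309 were higher in crown and 6390 in leaf. An ethylene-responsive ABR1-like factor (FvH4_2g13240), named for a repressor of abscisic acid responses in Arabidopsis, measured 12.4, 13 and 32.6 CPM in crown and 0.602, 0.396 and 0 CPM in leaf. Crown replicate 3 was the highest, and no crown library was near a leaf library (log2 5.77, SE 0.67, edgeR FDR 5.25e-05). The bHLH62 factor (FvH4_2g18100), scarecrow-like 1 (FvH4_2g15030) and NAC29 (FvH4_2g16180), the last named for a promoter of leaf senescence in Arabidopsis, were higher in crown by 3.05, 2.25 and 1.97 on the log2 scale. NAC29 measured 50.2, 40.7 and 50.3 CPM in crown and 18.6, 8.71 and 8.24 CPM in leaf. A trihelix GT-2-like factor (FvH4_2g13840) went the other way at 6.55–6.97 CPM in crown and 78.3–84.2 CPM in leaf (log2 −3.58, edgeR FDR 1.21e-09).

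Among the receptors, phytosulfokine receptor 2 (PSKR2, FvH4_2g13190), which binds a sulphated growth peptide, measured 18.7, 22 and 21 CPM in crown and 3.01, 2.47 and 1.97 CPM in leaf (log2 3.03). A leucine-rich repeat receptor kinase gene (FvH4_2g14410) measured 6.71, 4.32 and 5.32 CPM in crown and 88.0, 92.6 and 93.5 CPM in leaf (log2 −4.06). Both differed between tissues in every library, in opposite directions. Of the resistance genes, the TMV resistance protein N-like gene (FvH4_2g14320) measured 50.0–60.2 CPM in crown and 10.2–10.8 CPM in leaf (log2 2.39, edgeR FDR 4.99e-08). An RPM1-like gene (FvH4_2g14930) was also higher in crown (log2 2.76), and an SNC1-like gene (FvH4_2g14040) was higher in leaf by 2.19. CTR1 (FvH4_2g15800), the kinase that holds ethylene signalling off, measured 122.7, 166.4 and 142.3 CPM in crown and 25.7, 24.1 and 22.4 CPM in leaf (log2 2.58). A BYPASS1-like gene (FvH4_2g13680), named for an Arabidopsis gene that limits a root-borne signal, measured 146, 138 and 127 CPM in crown and 24.2, 23 and 17.6 CPM in leaf (log2 2.66).

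**Figure D4:**
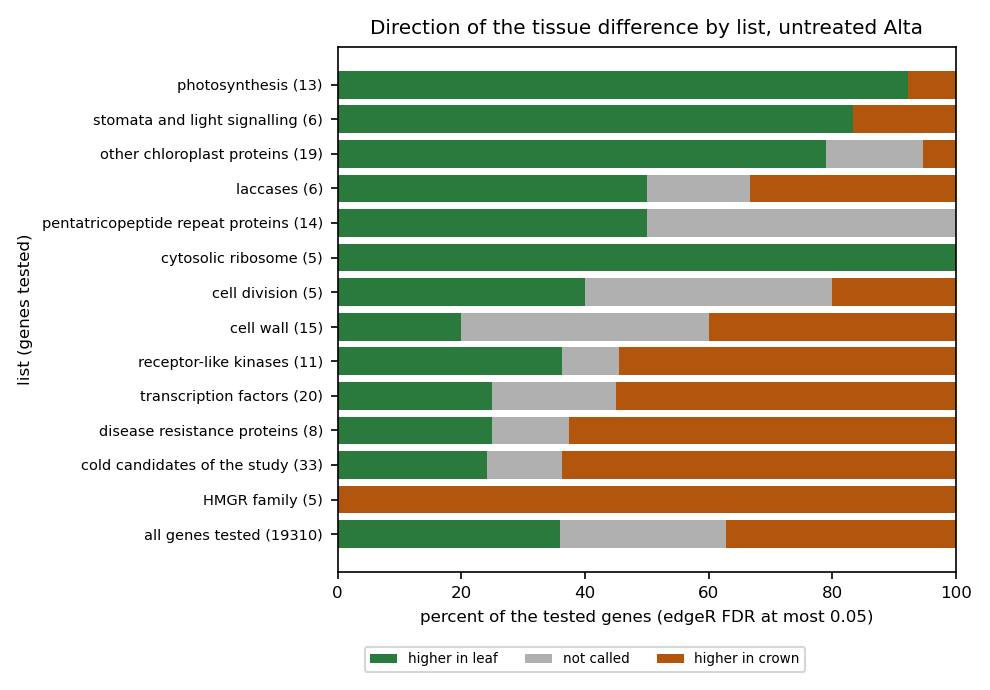
Share of tested genes higher in leaf (green), not called (grey) and higher in crown (orange) in 13 lists and in all 19310 genes, ‘Alta’ at 0 h, edgeR FDR at most 0.05; bars run from 0 to 100% and the number of genes tested is in brackets. Photosynthesis and cytosolic ribosome lists are on the leaf side and the HMGR family on the crown side, against 36% leaf and 37.1% crown in all genes.

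All 5 tested genes of the cytosolic ribosome were higher in leaf, with a median log2 difference of −0.60, but with library size alone 2 were higher in crown and 2 in leaf. 60S ribosomal protein L3 (FvH4_2g13300) measured 436, 409 and 387 CPM in crown and 705, 886 and 830 CPM in leaf (log2 −0.97, edgeR FDR 2.45e-05). Proteins S8, L32, S17 and S10 differed by −0.98, −0.60, −0.39 and −0.35, and the last 3 turned to 0.08, 0.29 and 0.33 with library size alone. Of 14 tested pentatricopeptide repeat genes, whose products process RNA in chloroplasts and mitochondria, 7 were higher in leaf, 0 in crown and 7 were not called (median −0.69). With library size alone 3 were higher in leaf and 2 in crown.

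Cell division genes were few and mixed, with 1 of 5 tested genes higher in crown and 2 in leaf. A mitotic cyclin (FvH4_2g16590), which drives entry into mitosis, measured 7.02, 7.15 and 8.50 CPM in crown and 1.88, 4.75 and 4.12 CPM in leaf (log2 1.10, edgeR FDR 0.00859; FDR 0.24 in a fit of 23 libraries). CDC45 (FvH4_2g18640), part of the helicase that opens DNA for replication, measured 0.610–1.14 CPM in crown and 1.96–3.27 CPM in leaf (log2 −1.57). A HAUS augmin-like subunit (FvH4_2g17860), which nucleates microtubules, overlapped at 39.9–42.9 and 39.4–42.8 CPM (log2 −0.01, edgeR FDR 0.888).

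Markers of other organs were looked for in the lists. The root endodermis was represented by 1 gene, a CASP1-like protein (FvH4_2g15060), related to the scaffold of the Casparian strip. It measured 4.13, 4.71 and 4.53 CPM in crown and 0, 0.198 and 0 CPM in leaf, a ratio of 76.9 (exact counting interval 21.1–638; 245 counts in crown and 2 in leaf). Of 10 genes of reproductive tissue 3 had no count in the 6 libraries and 3 were tested, 2 of them higher in crown. Their summed level was 169–198 CPM in crown and 125–145 CPM in leaf. Most of this came from an oleosin-B4-like gene (FvH4_2g13410), which measured 114, 129 and 147 CPM in crown and 126, 111 and 98.2 CPM in leaf and was not called (edgeR FDR 0.13), and from a glucan endo-glucosidase gene (FvH4_2g18200, log2 1.15; edgeR FDR 3.11e-05, or 0.0519 in a fit of 23 libraries). The photosynthesis list, a marker of green tissue, summed to 243–257 CPM in the crown libraries. The part of such cell types in the other tissue differences was not tested.

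The study tabulated 33 selected genes of the interval that showed transcript differences. It gave some of them known and others less-known roles under low temperature stress. They were chosen on libraries of this series, so their direction is not independent evidence. All 33 were tested, 21 were higher in crown and 8 in leaf. In 30 of them the tissues did not overlap, as in 77.7% of all genes tested. Their median log2 difference was 1.97, or 1.00 with 3 genes that had no count in 1 tissue set at their bounds, against 0.02 over all genes.

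The tissue difference was set against the same comparison in ‘NCGR1363’, which shares no library with it. In ‘NCGR1363’ 12689 of 19309 genes (65.7%) were called. Of 18637 genes tested in both genotypes 10039 were called in both, 71.1% of the genes called in ‘Alta’ and 79.1% of those called in ‘NCGR1363’. The direction was the same in 8957 of them (89.2%) and opposite in 1082. ‘NCGR1363’ leaf replicate 1 differed from the other leaf libraries in several genes below, and without it 11082 genes were called in both genotypes, 1652 of them in opposite directions. An interaction term, the tissue difference in ‘Alta’ minus that in ‘NCGR1363’ in a fit of the 12 untreated libraries, was called for 8262 of 20095 genes (41.1%), 4503 of them positive and 3759 negative. Without that library 9909 interactions were called. All 1082 opposite genes had a called interaction, which is no separate evidence because both were taken from the same libraries. The tissue and genotype effects of that fit were scaled within those libraries.

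The photosynthesis genes went to leaf in both genotypes, with 12 of 13 higher in leaf in ‘NCGR1363’ as well. The ATP synthase delta chain differed by −5.91 there (−5.63 in ‘Alta’) and the cpSRP43 gene by −4.99 (−4.96). Thioredoxin M differed by −9.21, and its interaction of 1.13 passed the test (edgeR FDR 0.00507). The carbonic anhydrase 2-like gene had 0, 1 and 2 counts in the ‘NCGR1363’ crown libraries and 13818, 1973 and 2690 counts in its leaf libraries, and its interaction was 7.76 (edgeR FDR 0.00203), a fitted value that depends on such low counts.

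The HMGR family differed between the genotypes. In ‘NCGR1363’ 2 of the 5 genes were higher in crown and 2 in leaf, and 4 had a positive interaction. FvH4_2g17060 stood at 5.09 CPM in crown and 6.83 CPM in leaf of ‘NCGR1363’ (log2 −0.43, edgeR FDR 0.15), and its interaction was 6.53 (edgeR FDR 3.17e-07). FvH4_2g17051, FvH4_2g17080 and FvH4_2g17090 differed by 0.64, −0.46 and −1.39 in ‘NCGR1363’, with interactions of 2.80, 2.78 and 2.23. EXLA2 showed a like pattern at 15 CPM in crown and 4.84 CPM in leaf of ‘NCGR1363’ (log2 1.64), with an interaction of 3.997 (edgeR FDR 5.97e-07).

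Several genes of other functions had opposite directions in the genotypes. NAC29 was higher in leaf in ‘NCGR1363’ (log2 −1.10, interaction 3.10), as were the BYPASS1-like gene (−0.74, interaction 3.43) and a lysozyme D-like gene (FvH4_2g18210, −1.74 against 2.27 in ‘Alta’, interaction 4.04). The cytosolic ribosome genes went the other way, 4 of 5 being higher in crown in ‘NCGR1363’ and all 5 having a negative interaction, between −0.53 for S10 and −1.52 for S8. The exception, L3, had 10099, 5922 and 4780 counts in the ‘NCGR1363’ leaf libraries (log2 0.34, edgeR FDR 0.128), and without leaf replicate 1 all 5 were higher in crown (L3 log2 0.54, FDR 9.24e-05). CDC45 was higher in crown in ‘NCGR1363’ by 1.37 (interaction −2.92). Both alcohol dehydrogenase genes were crown genes in both genotypes, with larger differences in ‘NCGR1363’ (3.87 and 5.43; interactions −1.62 and −2.15). The laccases FvH4_2g12610 and FvH4_2g12620 had opposite directions there too, at 5.78 and −2.89. FvH4_2g12620 had 2174, 434 and 492 counts in the ‘NCGR1363’ leaf libraries, and without leaf replicate 1 its difference was −1.97 (edgeR FDR 1.42e-07).

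**Figure D5:**
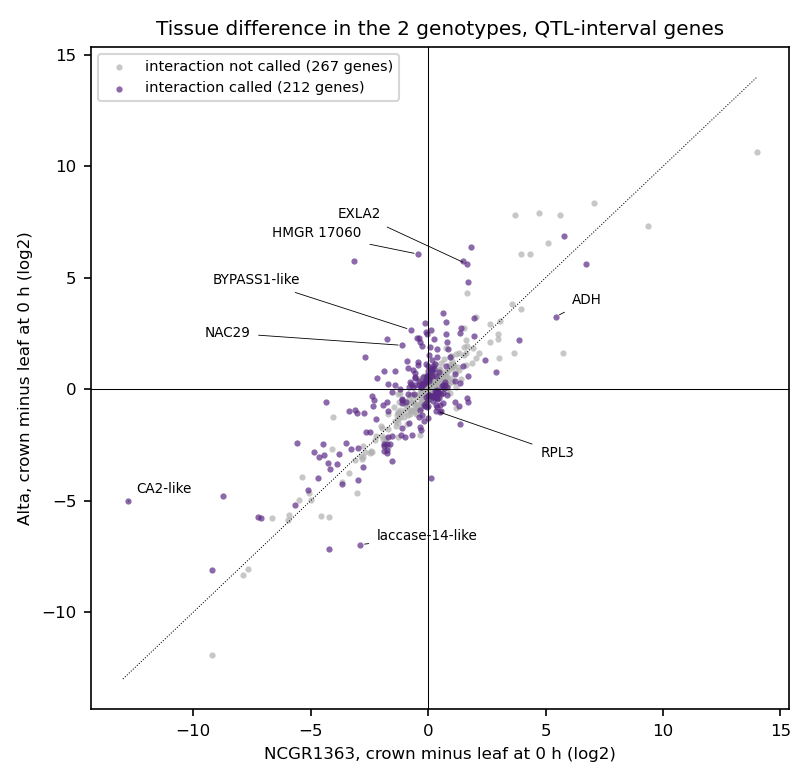
Fitted log2 difference (crown minus leaf) at 0 h of 479 genes of the QTL interval in ‘NCGR1363’ (x axis) and ‘Alta’ (y axis), with 212 genes of called interaction in purple; the dotted line marks equal differences, and values of genes with no count in a tissue depend on the fit. The HMGR gene FvH4_2g17060 lies at −0.43 and 6.058, and the laccase-14-like gene at −2.89 and −6.97.

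After 42 d at 2 °C the tissue comparison in ‘Alta’ gave other counts, and these rest on 1 library. The library labelled ‘Alta’ crown 42 d replicate 3 correlated with the untreated ‘Alta’ leaf libraries at r = 0.974–0.985 and with the untreated ‘Alta’ crown libraries at 0.725–0.740 (across genes, log2 of CPM plus 0.1). With it, 1 of 18756 genes (0.00533%) was called, although 3396 had an unadjusted p under 0.05 and DESeq2 called 2227. Without it 8325 of 18564 genes (44.8%) were called. The interaction of tissue and cold, untreated minus cold, was called for 2047 of 19892 genes (10.3%) with that library and 5745 of 19863 (28.9%) without it. The comparisons at 0 h and 42 d share no library, but the interaction holds both.

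The HMGR gene FvH4_2g17060, with a tissue difference of 6.058 at 0 h, had 0.42 (edgeR FDR 0.706) at 42 d with that library and 0.01 (FDR 0.985) without it; its interaction was 5.73 (FDR 0.000908) and 6.12 (FDR 2.23e-05). The BYPASS1-like gene went from 2.66 to −0.45 with the library and −0.47 without it, with interactions of 3.17 (edgeR FDR 0.00013) and 3.21 (FDR 9.09e-06). EXLA2 went from 5.62 to 1.34 with it and 1.89 without it, and its interaction passed only without it (4.35 at edgeR FDR 0.0505, then 3.81 at FDR 0.000294). The ATP synthase delta chain had −5.63 at 0 h, and at 42 d −0.05 with the library and −5.56 without it. Thioredoxin M had −8.11 at 0 h, and at 42 d −0.24 with it and −5.96 without it (interaction without it −2.07, edgeR FDR 0.000154).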

How the data were processed

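RNA of crown and leaf was sequenced as strand-specific paired-end reads of 150 bp by the authors, who trimmed them with TrimGalore and assigned them with RSEM and Bowtie2 in OmicsBox to the predicted mRNAs of the F. vesca v4.a2 annotation. The deposited values are the authors' expected counts per gene, all whole numbers, in 1 table of 24 libraries; the untreated ‘Alta’ crown libraries held 14069602 to 15155980 counts and the leaf libraries 12889156 to 16884412, and such depth leaves genes under about 1 CPM with wide errors (median SE 0.66 on the log2 scale). Counts of RSEM can divide reads between similar copies.

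Genes with at least 0.5 CPM, by library size alone, in 2 of 6 libraries were kept, close to the study's filter. TMM factors were 1.255–1.279 in crown and 0.784–0.799 in leaf. Apart from the 0.5 CPM threshold, CPM were TMM-scaled within the 6 libraries of each genotype. edgeR 4.0.16 (glmQLFit and glmQLFTest, earlier quasi-likelihood form) in R 4.3.3 gave log2 differences and Benjamini-Hochberg FDR over all genes tested, without a replicate term. Libraries of a tissue correlated at r = 0.975–0.990 and crown with leaf at 0.639–0.667. Same-numbered crown and leaf libraries did not deviate together.

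Descriptions came from the study's annotation of the QTL interval, and 26 lists were drawn from it. Members and lists were chosen with earlier results of these data known. By rule 10 described interval genes were taken in each direction, with the largest called difference, no overlap between tissues and at least 5 CPM. The most changed and the most abundant member of each list were taken too, as were the 5 largest interactions with genotype. Not all genes so taken are described above. Those left out include a basic blue protein gene (FvH4_2g15050, log2 3.61) and FvH4_2g17620 (log2 3.88). FvH4_2g15470 (log2 5.79) and FvH4_2g18420 (log2 8.33), both with no count in leaf, were also left out. Small families were taken whole, but not all of their members are described above. Over the whole table the rule took the 2 most changed genes in each direction at 100 CPM or more. Another 28 were chosen after their values were seen. Alternatives were other scalings, filters, tests (DESeq2 1.42.0, glmTreat), a replicate block, fits of all libraries and leaving out each replicate; the fit of 23 libraries was added after seeing the data. The scripts were tested on simulated data. Transcript-isoform tables were not used. Coding length was that of the longest coding region in a gene's transcript IDs. Gene sequences and coordinates were not used here. For some ‘NCGR1363’ samples a genotype label carried a running number, and titles were followed.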

Additional observations from a re-analysis of the deposited data

Results flagged for a closer look

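A tissue difference that differed between the genotypes at 0 h, by edgeR's interaction term, was called for 8262 genes over the whole table, and one that differed between 0 h and 42 d in ‘Alta’ for 2047 (5745 when ‘Alta’ crown 42 d replicate 3 was left out). Of 105 tested genes that were taken by rule or named here, 64 had a called interaction with genotype, 44 positive (crown minus leaf larger in ‘Alta’) and 20 negative. All values are on the log2 scale. Over all genes tested 41.1% were called, but the 105 genes were chosen partly on this interaction and partly after their values were seen. The shares are therefore not comparable. With all 24 libraries in 1 fit the count over all genes was 2762. Of the 64 calls 23 held under every alternative run, and 0 turned direction under any. The call was lost in 10 or more of 23 alternatives for zeaxanthin epoxidase (15), alanine–tRNA ligase (14), FvH4_2g18240 (14), DOF1.2 (13), rhodanese-like protein 4 (13), the vacuolar iron transporter (10) and thioredoxin Y1 (10). Without ‘NCGR1363’ leaf replicate 1 it was lost for laccase FvH4_2g12570 (3.48, edgeR FDR 0.0943), ABR1-like (4.17, FDR 0.0944) and the iron transporter (−0.87, FDR 0.078).

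The largest positive values were 8.98 for cytochrome P450 87A3 (FvH4_2g16500) and 7.76 for carbonic anhydrase 2-like. The P450 gene had a mean of 0.44 CPM in ‘Alta’ crown and no count in ‘Alta’ leaf. In ‘NCGR1363’ it stood at 12.7 CPM in crown and 113 CPM in leaf (log2 −3.16). Carbonic anhydrase 2-like had 0 to 2 counts in ‘NCGR1363’ crown. The size of both values depends on these low counts. The HMGR genes had 6.53 (FvH4_2g17060), 2.80 (FvH4_2g17051), 2.78 (FvH4_2g17080) and 2.23 (FvH4_2g17090). The laccases had 4.59 (FvH4_2g12570), 2.19 (FvH4_2g12590) and 1.12 (FvH4_2g12610) on the positive side and −4.07 (FvH4_2g12620) on the other. FvH4_3g01400 had 4.38, with no leaf count in ‘Alta’ and a mean of 0.12 CPM in ‘NCGR1363’ leaf. Its crown means were 392 CPM in ‘Alta’ and 320 CPM in ‘NCGR1363’, so this value too depends on low leaf counts.

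Transcription factors on the positive side were ABR1-like (4.32), DOF1.2 (3.88), NAC29 (3.10), scarecrow-like 1 (2.01), trihelix GT-2-like (0.62) and NAC78-like (0.38). Signalling and transport genes were BYPASS1-like (3.43), the lysine histidine transporter FvH4_2g16054 (2.74), the kinase OXI1 (FvH4_2g18040, 2.71), CTR1 (2.71), PSKR2 (2.28), phototropin-2 (2.07), HT1-like (1.69), aquaporin PIP2-7 (1.64), SWEET1-like (1.53), a probably inactive leucine-rich repeat kinase (FvH4_2g17440, 0.81), LIKE COV 2 (0.65) and TMV resistance protein N-like (0.44). Wall and defence genes were lysozyme D-like (4.04), EXLA2 (3.997), an ascorbate oxidase homologue (FvH4_2g16000, 2.45) and the glycine-rich wall protein (1.76).

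Further enzymes and storage proteins were a citrate-binding protein (FvH4_2g13513, 3.79), quinone oxidoreductases (1.97 for FvH4_2g18240 and 1.52 for FvH4_2g18350), cytochrome P450 71A4-like (1.69), the benzoyltransferase (1.26), oleosin-B4-like (0.98) and tryptophan aminotransferase-related 4 (0.97). Chloroplast genes were psbP domain protein (1.37), thioredoxin M (1.13), zeaxanthin epoxidase (0.89), alanine–tRNA ligase (0.51) and thioredoxin Y1 (0.36).

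The negative values began with ABCG22-like (FvH4_2g14330, −4.10), CDC45 (−2.92), probable FMO1 (−2.91) and the alcohol dehydrogenases (−2.15 and −1.62). The ribosomal proteins had −1.52 (S8), −1.28 (L3), −1.22 (L32), −0.84 (S17) and −0.53 (S10). The others were a lipid-transfer protein (FvH4_2g17820, −1.49), a pentatricopeptide repeat protein (FvH4_2g14640, −1.13), the monooxygenase FvH4_2g15410 (−1.06), the vacuolar iron transporter (−1.05), the receptor kinase FvH4_2g14410 (−1.04), glutamate–tRNA ligase (−0.63), quinone oxidoreductase FvH4_2g18320 (−0.62), rhodanese-like protein 4 (−0.57) and monosaccharide-sensing protein 2 (−0.43). With 3 libraries a group, no test for an outlying library was run within groups.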

How the results depend on the processing

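The calls of the tissue comparisons at 0 h kept their counts within 1.5 times under other filters, DESeq2 size factors and fits of more libraries, and between 13015 and 14318 genes were called in ‘Alta’ when any 1 library was left out, with 13356 under the replicate block, a pairing the data did not bear out (same-number r of −0.0851, 0.0415 and −0.109). Library size alone gave 11896 genes higher in crown in ‘Alta’ and 11003 in ‘NCGR1363’ (7168 and 6299 with TMM). A test against 2-fold called 7100 and 5908, with 3537 and 2439 higher in crown. All 24 libraries in 1 fit called 2762 genotype interactions (1496 positive); leaving ‘Alta’ crown 42 d replicate 3 out of that fit gave 6382. Leaving out 1 library gave 10968 or more calls in ‘NCGR1363’ and 7152 to 9909 interactions, both highest without ‘NCGR1363’ leaf replicate 1 (7325 then higher in crown in that genotype).

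At 42 d the count of 1 became 0 at FDR 0.01, with library size alone and with the replicate block, 2 with upper quartile scaling or no filter, 86 (43 higher in crown) in the current quasi-likelihood form, 2227 (1356) in DESeq2 and 5578 (3365) with all 24 libraries; leaving out 1 library gave 0 to 8325 (0 to 3901). The cold interaction (2047, 1091 positive) became 441 (298) at FDR 0.01, 3693 (3069) with library size alone, 4121 (1855) in DESeq2, 1149 with the replicate block and 5687 (2163) with all 24 libraries; leaving out 1 library gave 681 to 5745 (464 to 3083).

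Of 104 genes taken by rule or named here, 7 turned direction with library size alone. They turned to 0.31 for GIGANTEA, 0.67 for the HAUS subunit, 0.10 for a citrate-binding protein (FvH4_2g13513), 0.079, 0.29 and 0.33 for ribosomal L32, S17 and S10, and 0.46 for cellulose synthase A. The HAUS subunit, near 0 throughout, also stood at 0.18 with upper quartile scaling, 0.00848 with DESeq2 size factors, 0.00913 in DESeq2, 0.0149 with no filter, 0.0157 with all 24 libraries, 0.0636 with 23, and −0.0408 to 0.0136 without single libraries. Quinone oxidoreductase FvH4_2g18240 turned to −0.21 without leaf replicate 3, in a range of −0.21 to 0.91 over such fits. The causes were not tested. Depth limits genes under about 1 CPM, where 44.5% were called against 88.8% between 100 and 1000 CPM.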
